A study of Mus musculus with 115 samples.

Results

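Collagen chain genes encode the alpha chains that wind together into collagen molecules, the main structural proteins of the extracellular matrix. All genes with a Col symbol of the form Col-number-a-number and a probe set of their own were taken, each read by its brightest probe set, which gave 42 of 18772 genes on the array. They fell into 11 fibrillar chains, 6 basement membrane chains (type IV), 6 beaded filament chains (type VI) and 19 chains of other classes. The choice used gene names only and no measured difference. Col7a1 and Col9a3 shared their probe sets with another gene and were not counted among the 42.

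Fibrillar collagens (types I, III, V and XI) form the rope-like fibrils that give connective tissue its tensile strength. Type IV collagen forms the sheet-like network of basement membranes, which in a mammary fat pad surround each adipocyte, the blood vessels and the epithelial ducts. Type VI collagen forms thin beaded filaments next to basement membranes and is abundant in adipose tissue. The other classes coat fibrils (IX, XII, XIV, XVI), link basement membranes to the matrix (XV, XVIII), form hexagonal sheets (VIII, X) or cross the cell membrane (XIII, XVII, XXIII, XXV).

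Mammary fat pads of 115 distinct female mice aged 8 wk, none of them treated, were profiled with 1 Affymetrix array each. Every animal came from a backcross of [FVB/N x Spret/Ei] hybrids to FVB/N, so at each autosomal locus it carried FVB/N alleles alone or 1 allele of Spret/Ei, a strain of Mus spretus. The labels divide the mice into lymph cluster 3 (10 mice), lymph cluster 2 (61 mice) and lymph cluster 1 (44 mice), without saying what defines a cluster, and into array plate 2 (22 arrays) and plate 1 (93 arrays). The title of the series names Hipk2, a nuclear serine/threonine kinase, in white fat development. No mouse was a Hipk2 mutant, so each comparison below is across natural variation between mice, and a fat pad is a mixture of cell types whose shares were not measured.

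Values are log2 signals, and levels are not compared between genes because each probe set binds its RNA with its own strength. Array medians lay between 6.16 and 6.45. Of the 42 genes, 23 had a mean above the median probe set (6.32), among them 8 of 11 fibrillar, 2 of 6 type IV and 4 of 6 type VI chains. Adipocyte markers (16 of 16 measured), luminal epithelial markers (18 of 18) and blood endothelial markers (12 of 12) all lay above that median, while 0 of 9 cartilage and bone markers did. Cartilage collagens (Col2a1, Col9a1, Col9a2, Col10a1, Col11a1, Col11a2) were thus read in a tissue whose other cartilage markers were at the dim end of the array.

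Promoters are shown for 8 genes that the comparisons below describe most closely: the type IV pair Col4a1 and Col4a2, Col5a3, Col6a1 and Col15a1, all of which rose with Hipk2, Col6a5, which fell with it, and the fibrillar genes Col1a2 and Col3a1, which were not called with it. The windows run from 250 bases before to 50 bases after the RefSeq start site in mouse assembly GRCm38.p6, and lie at chr8:11312777-11313076 on the minus strand for Col4a1, chr8:11312555-11312854 on the plus strand for Col4a2, chr9:20815018-20815317 on the minus strand for Col5a3, chr10:76725995-76726294 on the minus strand for Col6a1, chr4:47207762-47208061 on the plus strand for Col15a1, chr9:105960594-105960893 on the minus strand for Col6a5, chr6:4505368-4505667 on the plus strand for Col1a2 and chr1:45311288-45311587 on the plus strand for Col3a1. Capitals mark CCAAT or its complement ATTGG (the CCAAT box), GGGCGG or CCGCCC (the GC box) and TATAAA or TTTATA (the TATA box), searched on both strands.
Col4a1: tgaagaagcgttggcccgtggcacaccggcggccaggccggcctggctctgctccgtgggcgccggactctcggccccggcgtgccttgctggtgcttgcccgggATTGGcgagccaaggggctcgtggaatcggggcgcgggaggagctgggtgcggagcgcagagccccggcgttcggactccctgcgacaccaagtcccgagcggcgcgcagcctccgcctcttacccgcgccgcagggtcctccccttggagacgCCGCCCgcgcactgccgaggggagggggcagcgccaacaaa
Col4a2: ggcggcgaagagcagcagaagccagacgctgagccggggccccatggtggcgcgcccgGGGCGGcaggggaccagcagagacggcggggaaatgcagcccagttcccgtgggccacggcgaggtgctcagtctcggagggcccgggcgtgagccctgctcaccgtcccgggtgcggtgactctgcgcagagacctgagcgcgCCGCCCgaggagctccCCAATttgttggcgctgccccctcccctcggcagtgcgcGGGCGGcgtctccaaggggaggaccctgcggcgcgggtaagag
Col5a3: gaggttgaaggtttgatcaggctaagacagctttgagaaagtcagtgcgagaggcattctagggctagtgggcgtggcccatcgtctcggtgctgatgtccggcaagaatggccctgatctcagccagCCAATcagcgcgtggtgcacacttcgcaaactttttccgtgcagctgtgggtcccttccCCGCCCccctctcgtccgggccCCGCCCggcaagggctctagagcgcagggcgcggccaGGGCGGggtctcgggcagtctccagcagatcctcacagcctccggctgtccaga
Col6a1: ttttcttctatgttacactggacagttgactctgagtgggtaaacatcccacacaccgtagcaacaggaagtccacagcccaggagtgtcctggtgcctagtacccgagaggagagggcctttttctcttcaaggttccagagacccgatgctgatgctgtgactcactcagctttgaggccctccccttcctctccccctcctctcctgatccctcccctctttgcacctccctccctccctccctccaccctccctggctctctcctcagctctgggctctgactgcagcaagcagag
Col15a1: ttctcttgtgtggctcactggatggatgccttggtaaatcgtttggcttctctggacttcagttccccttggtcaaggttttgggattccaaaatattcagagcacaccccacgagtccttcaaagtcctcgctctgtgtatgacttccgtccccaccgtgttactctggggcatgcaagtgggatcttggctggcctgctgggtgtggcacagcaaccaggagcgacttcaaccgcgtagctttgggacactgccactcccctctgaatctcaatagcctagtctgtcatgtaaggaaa
Col6a5: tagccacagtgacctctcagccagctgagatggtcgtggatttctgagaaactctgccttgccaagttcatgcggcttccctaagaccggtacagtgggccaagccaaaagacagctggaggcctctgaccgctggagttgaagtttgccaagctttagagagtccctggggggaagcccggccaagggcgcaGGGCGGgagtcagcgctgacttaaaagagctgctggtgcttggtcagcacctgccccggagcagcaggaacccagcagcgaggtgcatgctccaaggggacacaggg
Col1a2: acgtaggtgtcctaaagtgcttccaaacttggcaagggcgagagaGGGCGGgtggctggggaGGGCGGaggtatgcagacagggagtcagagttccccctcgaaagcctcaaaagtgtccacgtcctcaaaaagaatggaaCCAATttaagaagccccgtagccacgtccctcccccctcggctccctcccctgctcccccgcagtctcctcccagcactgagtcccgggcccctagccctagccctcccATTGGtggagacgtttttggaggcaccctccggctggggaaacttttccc
Col3a1: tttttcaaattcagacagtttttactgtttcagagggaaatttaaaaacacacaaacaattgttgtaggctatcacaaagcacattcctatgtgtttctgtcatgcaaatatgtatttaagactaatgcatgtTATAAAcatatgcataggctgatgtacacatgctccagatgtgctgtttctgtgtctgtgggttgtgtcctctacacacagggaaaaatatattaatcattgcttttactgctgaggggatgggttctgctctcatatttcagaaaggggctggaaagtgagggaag

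Col4a1 and Col4a2 start 21 bases apart on opposite strands, so their windows share 78 bases. Col4a2 held 3 GC boxes and a CCAAT box, and Col4a1 held 1 of each. The GC box of Col4a1 lies in the shared bases and is 1 of the 3 counted for Col4a2. Col1a2 held 2 CCAAT and 2 GC boxes, Col5a3 held 1 CCAAT box and 3 GC boxes, Col6a5 held 1 GC box, and Col3a1 held 1 TATA box. None of these letters were found in the windows of Col15a1 and Col6a1. RefSeq windows were matched for 34 of the 42 genes, 37 windows in all. A CCAAT box was in 12 of the 37, against 37.4% of 32851 mouse windows, a GC box was in 22 (35.7% of all windows) and a TATA box in 5 (13.6%). A match is only a run of letters and was not tested as a binding site.

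The spread between mice was widest in Col8a1 (SD 0.537), Col6a5 (0.531), Col15a1 (0.520) and Col14a1 (0.514), and narrowest in Col2a1 (SD 0.144, n = 115). Over all probe sets the median SD was 0.238, and over the 42 genes it was 0.252. Type VI chains had a median SD of 0.364, fibrillar chains 0.254, type IV chains 0.240 and the other classes 0.222. The low tails of Col1a1, Col1a2, Col3a1 and Col5a2 reached further than their high tails: the lowest Col3a1 mouse stood at −3.67 SD from the median, and the highest at 1.70 SD.

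**Figure D1:**
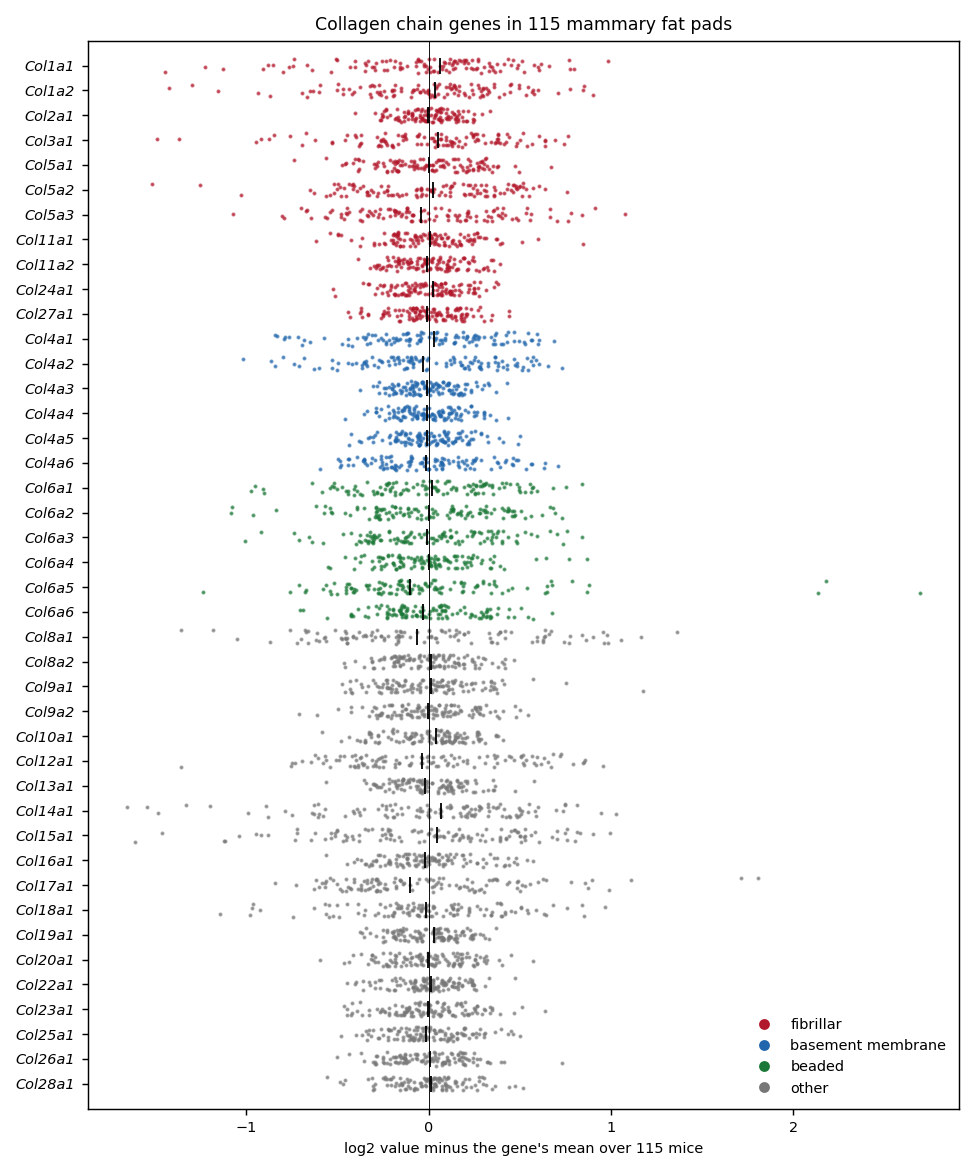
Values of 42 collagen genes in 115 mice. Each point is 1 mouse, the horizontal axis is the log2 value minus the gene's mean, ticks mark medians, and colours give the class. Col6a5 has 3 mice set apart to the right (up to 8.47, against a median of 5.68), and Col17a1 has 2.

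Values of the same 42 genes were compared between the labelled groups with limma, in 1 model of lymph cluster and array plate over 28204 probe sets. No collagen gene was called at an adjusted p under 0.05 in lymph cluster 3 against 2, 3 against 1 or 2 against 1, and 0 of 42 had an unadjusted p under 0.05 in any of them. Among all probe sets, 0.0% were called, and 0.00355% (1 probe set), 0.00355% (1) and 0.0142% (4) had an unadjusted p under 0.05 in these 3 contrasts. Col1a1, the alpha 1 chain of type I collagen, ran from 10.36 through a median of 10.83 to 11.69 in cluster 3, from 9.67 through 10.99 to 11.88 in cluster 2, and from 9.45 through 10.94 to 11.67 in cluster 1. The clusters overlapped over most of their ranges. The Col1a1 difference was −0.03 for cluster 2 minus cluster 1 (95% interval −0.20 to 0.14), −0.02 for 3 minus 1 (−0.33 to 0.28) and 0.00 for 3 minus 2 (−0.29 to 0.30). For all probe sets, an unadjusted p under 0.05 was far rarer than the 1 in 20 that unrelated groups of mice give. Whether the deposited values had been adjusted for cluster is not stated in the sources used here and was not tested, so these contrasts do not show that collagen levels were alike in the clusters.

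Between plates, Col1a1 ran from 9.67 through a median of 10.85 to 11.88 on plate 2 and from 9.45 through 10.97 to 11.69 on plate 1. Its plate 2 minus plate 1 difference was −0.12 (−0.32 to 0.08). Again 0 of 42 collagen genes were called (0.0106% of all probe sets, 0.00355% higher), and Col2a1 and Col6a6 had unadjusted p-values under 0.05, with differences of −0.08 and −0.13. Among all probe sets 2.7% had an unadjusted p under 0.05, again fewer than 1 in 20, so alike levels on the plates are not shown. The SD of Col1a1 was 0.643 on plate 2 and 0.371 on plate 1, and that of Col6a3 was 0.324 and 0.367. Differences in spread were not tested. Cluster and plate were kept as terms in every fit below.

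The comparison implied by the title is across mice by their Hipk2 level. Hipk2 ranged from 9.83 through a median of 10.76 to 11.49. With rising Hipk2, 9 collagen genes rose and 5 fell at an adjusted p under 0.05 (limma, Benjamini-Hochberg over 28203 probe sets). The share of the 42 that was called, 33.3%, was close to the 35.8% of all probe sets called, so the count says nothing about collagens as a group. Of all probe sets, 18.5% were called higher and 17.2% lower, and at an unadjusted p under 0.05 the shares were 18 of 42 collagens and 42.7% of all probe sets. Those that rose were the main type IV and type VI chains, both multiplexins and the type V chains Col5a1 and Col5a3, whereas the type V chain Col5a2 (slope 0.23, limma adjusted p = 0.0794) and the main chains of types I and III were not called. With the luminal epithelium mean in the fit, Col5a2 rose too (0.39, SE 0.105, limma adjusted p = 0.00173). The median slope was 0.00 over the 42 genes and −0.01 over all probe sets.

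Col15a1, the core protein of a basement membrane proteoglycan, had the steepest slope. Its values ran from 8.04 through a median of 9.70 to 10.64, and the mice low in it were mostly low in Hipk2. The slope was 1.11 log2 units per log2 unit of Hipk2 (SE 0.0945, n = 115, limma adjusted p = 5.57e-19).

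Col4a1 and Col4a2, the chains of the common type IV network, behaved alike. Col4a1 ran from 7.96 through 8.83 to 9.49 and had a slope of 0.66 (SE 0.0744, limma adjusted p = 5.03e-13). Col4a2 ran from 8.13 through 9.12 to 9.88 and had a slope of 0.74 (SE 0.0754, limma adjusted p = 5.2e-15). The other type IV chains, which make the networks of specialised basement membranes, were not called. Their slopes were 0.06 for Col4a3, 0.10 for Col4a4, −0.08 for Col4a5 and −0.15 for Col4a6.

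Among type VI chains, the trio Col6a1, Col6a2 and Col6a3, which assemble together, rose with slopes of 0.60, 0.48 and 0.45. Col6a1 ran from 8.995 through 9.99 to 10.81 (slope SE 0.0853, limma adjusted p = 4.17e-09). Of the chains that can take the place of Col6a3, 2 were called the other way: Col6a5 fell by 0.50 per unit of Hipk2 and Col6a4 fell by 0.17. Both had means below the median probe set. The Col6a4 fall (limma adjusted p = 0.0383) kept its call in 6 of 17 alternatives, and the Col6a5 fall in 14 of 17. Col6a6 had a slope of −0.15 and was not called (limma adjusted p = 0.091).

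Fibrillar chains split within their class. Col5a3, a type V chain, ran from 6.35 through 7.38 to 8.499 and rose by 0.73 per unit (SE 0.0859, limma adjusted p = 4.1e-12). Col5a1, the type V chain that regulates fibril diameter, rose by 0.24. Col11a2, a chain of the cartilage type XI, fell by 0.12. For Col1a1, which ran from 9.45 through 10.96 to 11.88 with no straight trend along Hipk2, the slope was 0.04 (95% interval −0.20 to 0.27). Col1a2 had a slope of 0.03 (−0.20 to 0.26) and Col3a1 of 0.07 (−0.15 to 0.29), so slopes up to the upper bounds of these intervals are not excluded by the fit. Col18a1, the second multiplexin and the source of endostatin, rose by 0.46, while the fibril-associated Col9a1 and Col16a1 fell by 0.31 and 0.16.

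The slopes of chains of different classes were compared within each array, by fitting the log2 difference of 2 genes on Hipk2, with 3 such differences tested by two-sided permutation. The Col4a1 slope exceeded the Col1a1 slope by 0.63 (SE 0.0925, n = 115, adjusted p = 1.5e-05), and the Col6a1 slope exceeded it by 0.56 (SE 0.104, adjusted p = 1.5e-05). Their raw permutation p of 1e-05 is the smallest that 100000 permutations can give. Col4a1 and Col6a1 differed by 0.07 (SE 0.0644, permutation p = 0.306), about the size of the error. On plate 1 alone the same differences were 0.68, 0.58 and 0.10.

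**Figure D2:**
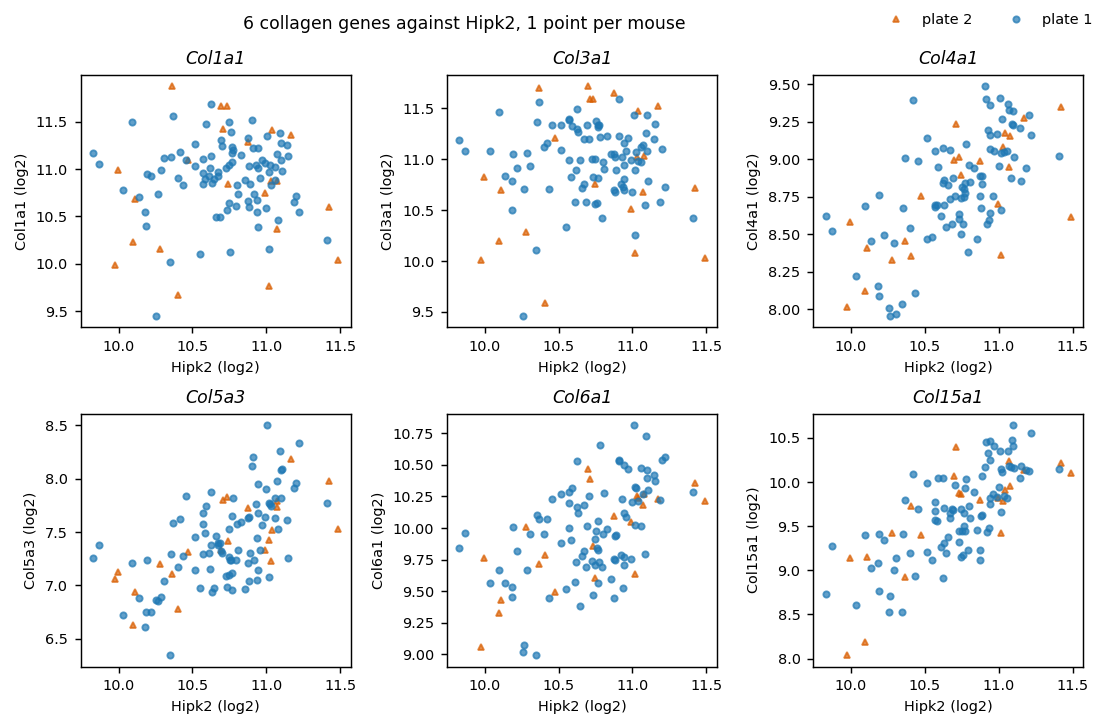
Log2 values of 6 collagen genes (vertical axes) against Hipk2 (horizontal axes), 1 point per mouse, triangles for plate 2 and circles for plate 1. Col4a1, Col5a3, Col6a1 and Col15a1 climb with Hipk2 (slopes 0.66, 0.73, 0.60 and 1.11), while Col1a1 and Col3a1 show no line (slopes 0.04 and 0.07).

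Hipk2 itself followed the adipocyte content of the pads as read by marker genes. Against the mean of 16 white adipocyte markers (a list without collagens), Hipk2 had Pearson's r = 0.854 and Spearman's rho = 0.844 (permutation p = 1e-05 each, adjusted over 5 lists 1.67e-05, n = 115). The r was 0.836 on plate 2, 0.858 on plate 1 and 0.838 without the 2 mice of most extreme Hipk2. With blood endothelium r was 0.657 (rho = 0.648, permutation p = 1e-05), 0.489 on plate 2 and 0.723 on plate 1. With luminal epithelium r was −0.331 (rho = −0.372, permutation p = 0.00035), and with cell cycle genes it was −0.437 (rho = −0.442, permutation p = 1e-05), but −0.007 on plate 2 and −0.536 on plate 1. Skeletal muscle genes had r = −0.101 (rho = 0.028, permutation p = 0.285). In a bulk sample, fewer cells of a type and less RNA per cell cannot be told apart.

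When the white adipocyte mean was added to the Hipk2 fit, 2 collagen genes still rose, Col15a1 (slope 0.58, SE 0.173, limma adjusted p = 0.0214) and Col5a3 (0.49, SE 0.164, limma adjusted p = 0.044), and none of the 5 falls was called. Of all probe sets, 3.98% rose and 3.83% fell in that fit, so calls became rarer across the array and not among collagens alone. Col4a1 then had a slope of 0.41 (SE 0.141, limma adjusted p = 0.0556), Col6a1 of 0.28 (SE 0.161, limma adjusted p = 0.307) and Col18a1 of 0.04 (SE 0.184, limma adjusted p = 0.928). Standard errors grew because both terms vary together. With the means of 4 lists in the fit (white adipocyte, luminal epithelium, skeletal muscle and cell cycle, so without endothelium), Col15a1 was the only collagen gene called (0.61, SE 0.168, limma adjusted p = 0.0124), where 3.37% of all probe sets rose and 3.33% fell. In the same adipocyte-adjusted model the Col4a1 minus Col1a1 difference was 0.44 (SE 0.177, permutation adjusted p = 0.0399) and the Col6a1 minus Col1a1 difference was 0.32 (SE 0.198, permutation adjusted p = 0.158).

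The falling genes were less steady than the rising ones. Col6a4, Col6a5, Col11a2 and Col16a1 had means below the median probe set, and Col9a1 had a mean above it. Without the 2 mice farthest from the Hipk2 median (replicate 7 of lymph cluster 2 at 9.83 and replicate 15 of lymph cluster 1 at 9.87), the 9 rises remained and 2 falls remained, Col6a5 (−0.38) and Col9a1 (−0.26). Centring each array on its median gave 12 rises and 3 falls, so the rising share of the calls moved to 80.0%, against 64.3% as deposited (all probe sets 64.4%, against 51.8%). Col4a3, Col4a4 and Col2a1 were the genes gained.

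Col6a5 was the one collagen gene of the 42 whose values separated into 2 levels (a 2-component mixture beat 1 component by over 10 units of the Bayesian information criterion, as it did for 6.63% of all probe sets). It ran from 4.54 through a median of 5.68 to 8.47. Only 3 mice made the upper level, at 8.47 (replicate 7 of lymph cluster 2), 7.96 (replicate 27 of lymph cluster 2) and 7.91 (replicate 17 of lymph cluster 1). The first of them was also the mouse with the lowest Hipk2. Without all 3, the Col6a5 slope on Hipk2 was −0.33 (SE 0.0981, limma adjusted p = 0.00504), against −0.50 (SE 0.136) with them. A second Col6a5 probe set correlated with the first at r = 0.782 across mice. That check failed for Col5a1, whose second probe set had r = 0.00156 with the one used, so the Col5a1 values rest on 1 of 2 probe sets that disagree.

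Between lymph clusters 2 and 1 the Hipk2 slope was compared by an interaction term in limma. No collagen gene was called (0 of 42, against 4.62% of all probe sets, and 0 of 42 with an unadjusted p under 0.05, against 17.3%). The slope differences, cluster 2 minus cluster 1, ran from −0.42 to 0.41, so alike slopes are not shown. Within cluster 2 alone the same 9 collagen genes rose with Hipk2 and 2 of the 5 falls were called (15.5% of all probe sets rose and 15.9% fell). Within cluster 1 alone 8 rose, Col5a1 being lost, and 1 fall was called (12% of all probe sets rose and 5.39% fell).

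The same composition lists were then used as the variable to ask which collagens go with which compartment. With the white adipocyte mean, 10 collagen genes rose and 6 fell (41.5% of all probe sets were called, 20.8% higher and 20.7% lower, against 38.1% of the 42). At an unadjusted p under 0.05 it was 19 of 42 and 47.2% of all probe sets. The steepest rises were Col15a1 (1.35, SE 0.114), Col4a2 (0.94), Col5a3 (0.84), Col4a1 (0.78), Col6a1 (0.74), Col18a1 (0.64), Col6a2 (0.62) and Col6a3 (0.54), followed by Col5a2 (0.35) and Col5a1 (0.30). Col6a5 (−0.62), Col9a1 (−0.36), Col4a6 (−0.33), Col16a1 (−0.25), Col6a6 (−0.20) and Col6a4 (−0.19) fell. All 6 type VI chains were thus called, the common trio upward and the alternative chains downward, but the falls of Col6a4 and Col6a6 did not pass in 6 of 12 and 6 of 13 alternatives. In the joint fit of 4 list means neither was called (limma adjusted p = 0.0707 and 0.141). Without the 2 mice of lowest adipocyte mean (replicates 57 and 31 of lymph cluster 2), 10 rose and 10 fell, with Col5a2 and Col6a4 no longer called and Col11a1, Col14a1, Col17a1, Col4a5 and Col9a2 among the falls. Centring the arrays gave 14 rises and 5 falls, a rising share of 73.7%, against 62.5% as deposited (all probe sets 65.8%, against 50.2%).

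With the blood endothelium mean, 11 collagen genes rose and none fell (26.8% of all probe sets called, 16.2% higher, against 26.2% of the 42). Col15a1 (1.12, SE 0.124), Col4a2 (0.88), Col5a3 (0.84), Col4a1 (0.78) and Col6a1 (0.61) led, and Col4a3 (0.14) and Col2a1 (0.13) had the smallest slopes. All of the 11 but Col4a3 and Col2a1 were also called with the adipocyte mean. Without replicates 57 and 6 of lymph cluster 2, which had the lowest endothelial means, Col18a1, Col4a3 and Col2a1 were not called and Col9a1 fell. The Col18a1 call also failed in other settings, in 5 of 10 alternatives in all (among them plate 1 alone, quantile normalization and array weights).

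Luminal epithelium gave another set. With its marker mean, which ranged from −2.01 to 1.69 around the average mouse, 13 collagen genes rose and 4 fell (27.9% of all probe sets called, 12.7% higher and 15.2% lower, against 40.5% of the 42), and 20 of 42 and 38.2% of all probe sets passed an unadjusted p under 0.05. Col17a1, a transmembrane collagen of hemidesmosomes in basal epithelial cells, ran from 5.73 through 6.47 to 8.38 and had the steepest slope (0.36, SE 0.0513, limma adjusted p = 1.02e-08). Col4a6 (0.26, SE 0.0297) and its X-linked neighbour Col4a5 (0.16, SE 0.0199), which share a type IV network, rose as well. Col4a1 and Col4a2 had slopes of −0.04 and −0.09 and were not called.

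Main fibrillar chains were also on this list: Col3a1 rose by 0.20 (SE 0.0511), Col1a1 by 0.20 (SE 0.0534), Col1a2 by 0.17 and Col5a2 by 0.17 per unit of the epithelial mean. Fibril-associated Col14a1 (0.21), Col16a1 (0.19), Col9a1 (0.16) and Col9a2 (0.10) rose with them, as did Col8a1 (0.25), a sheet-forming chain of blood vessels, and Col11a1 (0.16). Col15a1 (−0.20), Col8a2 (−0.08), Col10a1 (−0.08) and Col23a1 (−0.07) fell. None of the 6 type VI chains was called, and none had an unadjusted p under 0.05. Without the 2 mice farthest from the median of the epithelial mean (replicate 4 of lymph cluster 1 and replicate 4 of lymph cluster 2), 10 of the 13 rises remained, and Col1a1, Col1a2 and Col5a2 were lost.

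Centring the arrays gave 12 rises and 14 falls with the epithelial mean, a rising share of 46.2%, against 76.5% as deposited (all probe sets 21.2%, against 45.4%). All but Col9a2 of the 13 rises remained under centring. In a joint fit of the 4 list means, 11 of the 13 rises remained. Col14a1 and Col9a2 were lost, Col5a1 and Col4a1 were gained, and the Col4a1 slope was 0.13 (SE 0.0382, limma adjusted p = 0.0109) in place of −0.04. Col4a2 had a slope of 0.10 (limma adjusted p = 0.0624) in place of −0.09, and Col15a1 had an epithelial slope of 0.05 (limma adjusted p = 0.488) in place of −0.20. That joint fit also gave rises of Col1a1 (0.58, SE 0.156) and Col3a1 (0.65, SE 0.145) with the adipocyte mean, for which neither was called alone (0.06 and 0.11). Col12a1 (0.65), Col1a2 (0.57) and Col11a1 (0.21) were gained there too, and Col5a2 had a slope of 0.99 in place of 0.35. Among the other fibrillar chains, Col11a2 was called as a fall (−0.22), and Col2a1, Col24a1 and Col27a1 were not called.

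Skin markers were high where Col17a1 was highest. In the 2 mice with the highest Col17a1 (8.38 and 8.29), the epidermal keratin Krt10 read 11.20 and 11.93, against a median of 5.81 over all mice, and loricrin (Lor) read 10.80 and 11.88, against 4.88. Of 6 epidermal genes, 1 had a mean above the median probe set, and Krt2 read 4.69 and 4.46 in those 2 mice, near its median of 4.44. Krt10 was at 8 or higher in 16 mice. Without these 16 mice, all 13 rises with the epithelial mean remained, among them Col17a1.

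**Figure D3:**
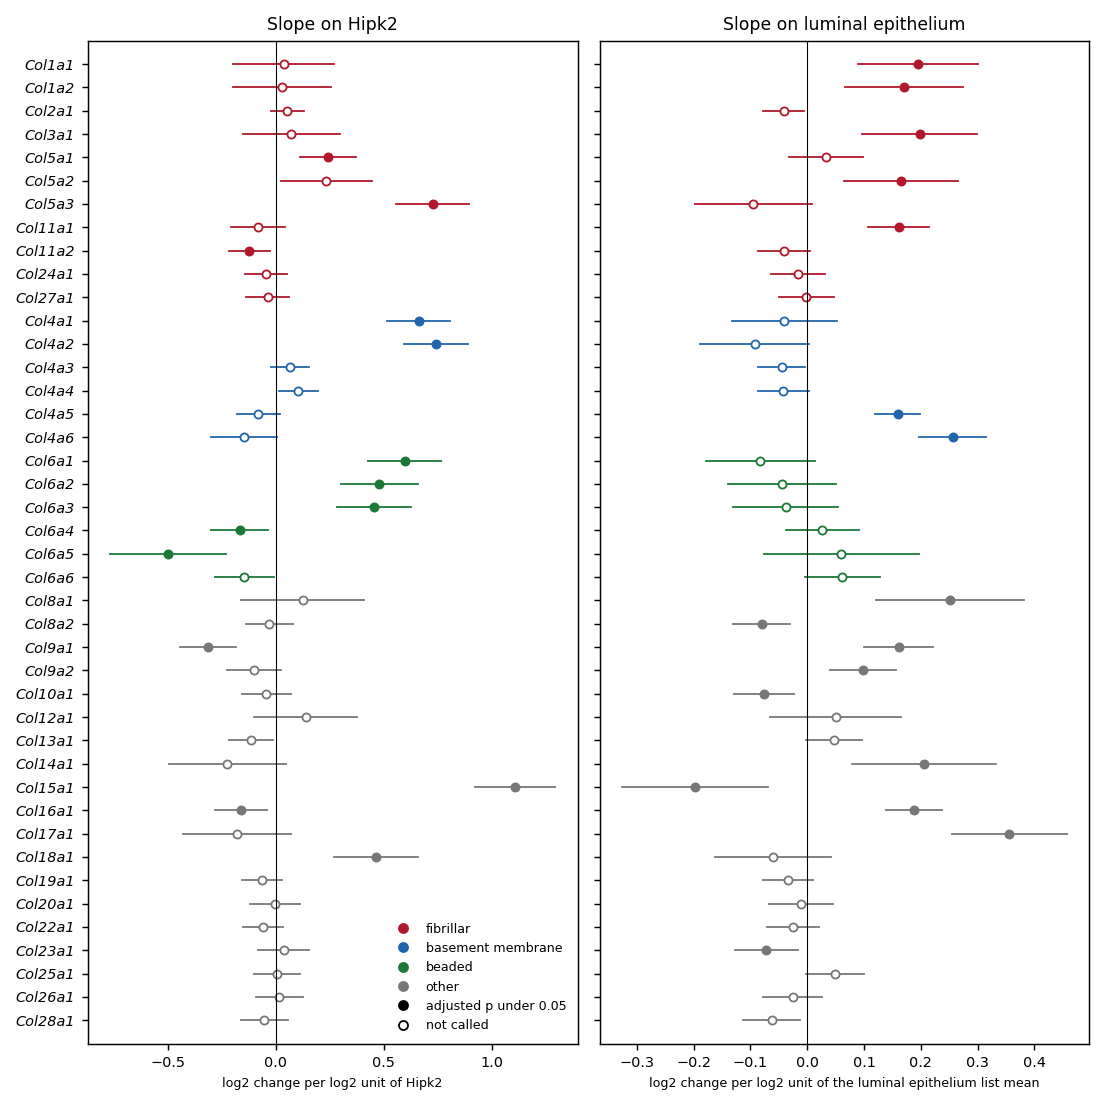
Slopes of the 42 collagen genes on Hipk2 (left) and on the luminal epithelium mean (right), in log2 units per log2 unit, with 95% intervals. Filled points passed an adjusted p under 0.05 and colours give the class. Col15a1 lies at the far right on the left panel (1.11) and at the far left on the right panel (−0.20), and Col1a1 and Col3a1 are called only on the right panel (0.20 each).

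With the mean of cell cycle genes, 10 collagen genes rose and 1, Col4a3 (−0.09), fell (26.9% of all probe sets called, 14.8% higher and 12.1% lower, against 26.2% of the 42). Col17a1 (0.27, SE 0.0817), Col12a1 (0.26), Col5a2 (0.26), Col1a2 (0.25), Col14a1 (0.25), Col1a1 (0.25), Col16a1 (0.24), Col3a1 (0.24), Col11a1 (0.20) and Col9a2 (0.11) made up the rises. Without the 2 mice of highest cell cycle mean (replicate 14 of lymph cluster 2 and replicate 18 of lymph cluster 1), Col17a1, Col14a1, Col9a2 and Col4a3 were not called and Col27a1 rose. In the joint fit of the 4 list means those same genes were not called with the cell cycle mean. Col18a1 (0.42), Col6a2 (0.28), Col6a3 (0.23), Col15a1 (0.22), Col6a1 (0.21), Col5a1 (0.15) and Col26a1 (0.13) were gained as rises there. For all probe sets the rising share of calls was 55.2% as deposited and 36.1% after centring, while for collagens it was 90.9% and 88.9%. No collagen gene was called with the skeletal muscle mean (limma, 0 of 42, 9.99% of all probe sets called, 4.8% higher and 5.19% lower, with 1 collagen at an unadjusted p under 0.05), although the muscle mean ranged widely, from −2.14 to 5.26 around the average mouse.

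Correlations between named pairs of chains were computed after cluster and plate means were removed, 23 pairs in all, of which 20 passed an adjusted permutation p under 0.05 for Pearson's r. The main chains of types I, IV and VI varied closely with their partners: Col1a1 and Col1a2 of type I had r = 0.956 (rho = 0.942), Col4a1 and Col4a2 of type IV had r = 0.950 (rho = 0.952), and Col6a1 and Col6a2 of type VI had r = 0.933 (rho = 0.915), each with a permutation p of 1e-05 and an adjusted p of 1.28e-05, n = 115. On plate 2 these r were 0.961, 0.925 and 0.912, and on plate 1 they were 0.950, 0.959 and 0.939. Without the 2 mice farthest from the median they were 0.947, 0.948 and 0.923. Col4a1 and Col4a2 both lie on chromosome 8 and Col6a1 and Col6a2 on chromosome 10, whereas Col1a1 and Col1a2 lie on chromosomes 11 and 6. Linked genes in a backcross tend to share their Spret/Ei allele, and its part in these r was not tested.

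Type III followed type I, with r = 0.933 between Col1a1 and Col3a1 (rho = 0.904, permutation p = 1e-05). Col6a1 with Col6a3, which lies on another chromosome, had r = 0.832 (rho = 0.821), and Col5a1 with Col5a2 of type V had r = 0.826 (rho = 0.808, permutation p = 1e-05 in both). Neighbouring genes were correlated to differing degrees: Col4a5 and Col4a6, whose start sites lie 1343 bases apart, had r = 0.732 (rho = 0.735, permutation p = 1e-05), whereas the neighbours Col4a3 and Col4a4 had r = 0.355 (rho = 0.365, permutation p = 0.00011) and on plate 2 an r of −0.0159. In 3 pairs of assembly partners the pooled correlation did not pass: r was 0.0139 for Col11a1 and Col11a2 (permutation p = 0.882), −0.0785 for Col8a1 and Col8a2 (p = 0.404) and −0.0125 for Col4a4 and Col4a5 (p = 0.893). Of these genes all but Col8a1 had means below the median probe set, so a lack of shared variation is not shown. The means of Col4a3 and Col4a6 lay below it as well. For Col11a1 and Col11a2 the value depended on the setting, with r = −0.516 on plate 2 alone (permutation adjusted p = 0.0203) and r = 0.214 after the 4 list means were also removed (permutation adjusted p = 0.0237).

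Between classes, Col4a1 followed the type XV and VI chains more closely than it followed Col1a1 as a value, with r = 0.857 for Col15a1 (rho = 0.857), 0.794 for Col6a1 (rho = 0.778), 0.681 for Col18a1 (rho = 0.668) and 0.497 for Col1a1 (rho = 0.485, permutation p = 1e-05 in each). Col1a1 and Col6a1 had r = 0.455 (rho = 0.441). The difference between these r was not tested. On plate 2 the r of Col1a1 with Col4a1 was 0.648, and on plate 1 it was 0.472. After the 4 list means were also removed, Col4a1 and Col15a1 still had r = 0.722 and Col1a1 and Col1a2 had r = 0.944. As a description over the 23 genes above the median probe set, the median r was 0.362 among 28 fibrillar pairs, 0.773 among 8 pairs of a type IV with a type VI chain, 0.489 among 16 pairs of a fibrillar with a type IV chain, and 0.118 among 36 pairs of the other classes.

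**Figure D4:**
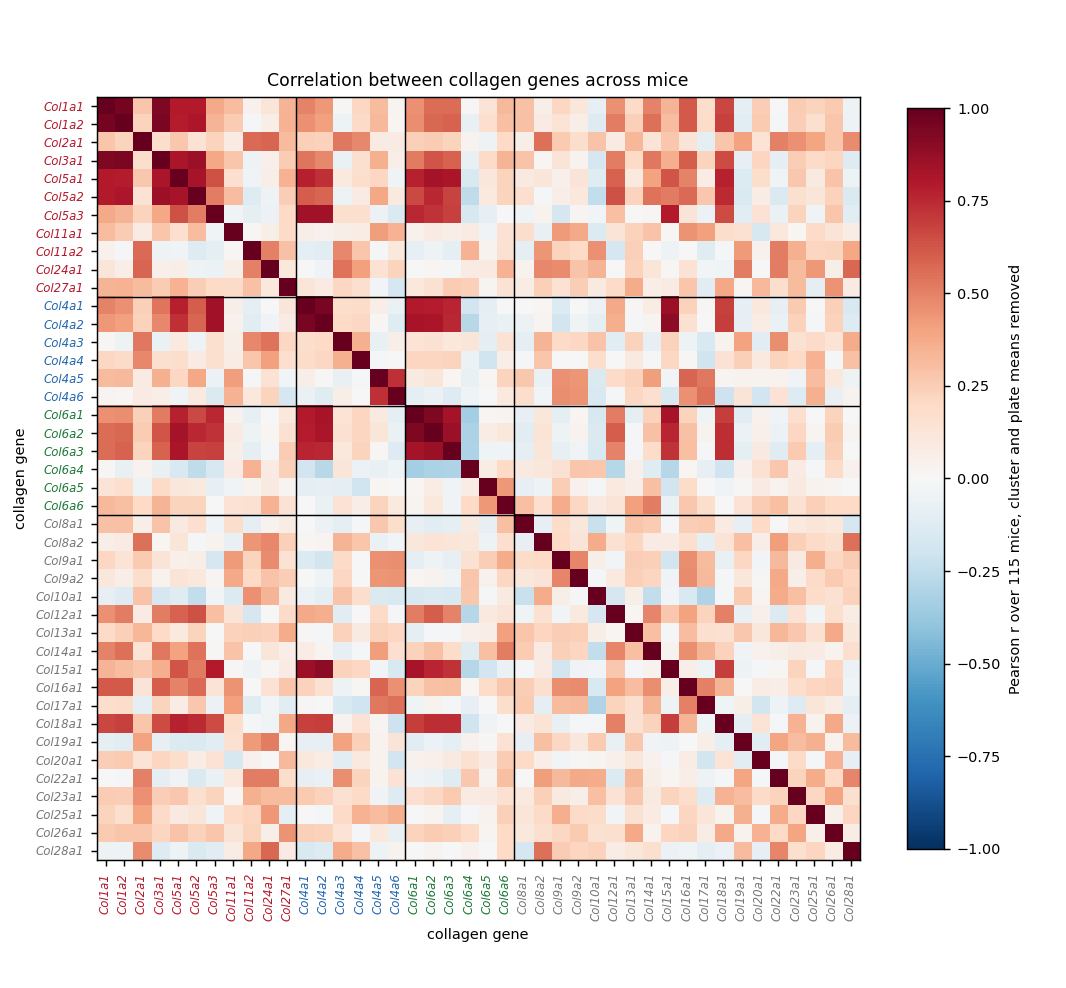
Pearson's r between each pair of the 42 collagen genes over 115 mice, after cluster and plate means were removed, from −1 (blue) to 1 (red). Black lines separate the classes. Dark blocks join Col1a1, Col1a2, Col3a1, Col5a1 and Col5a2, and Col4a1 and Col4a2 with Col6a1, Col6a2, Col6a3, Col5a3, Col15a1 and Col18a1 (r of Col4a1 with Col15a1 is 0.857). The blocks overlap: r of Col5a1 is 0.835 with Col6a2 and 0.794 with Col1a1, and r of Col18a1 is 0.767 with Col5a1 and 0.681 with Col4a1. Col4a5 and Col4a6 form a pair of their own (0.732).

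Fits across all probe sets on 1 chain of each main class showed which genes moved with it. With Col1a1, 24 of the other 41 collagen genes rose and none fell (16.5% of all probe sets called, 9.79% higher and 6.67% lower, against 58.5% of the collagens). By class these were 8 of 10 fibrillar, 3 of 6 type IV, 4 of 6 type VI and 9 of 19 other chains. Col1a2 (0.93, SE 0.0283), Col3a1 (0.90), Col5a2 (0.74), Col18a1 (0.61) and Col14a1 (0.59) had the steepest slopes. For all probe sets, centring moved the rising share of calls to 45.5%, against 59.5% as deposited, and left 20 collagen rises and no fall. Without replicate 4 of lymph cluster 1 and replicate 2 of lymph cluster 2, the mice lowest in Col1a1, 21 rises remained.

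Outside the collagens, the rising genes with the smallest p on Col1a1 were Bmp1 (slope 0.61, r = 0.820), which cleaves the C-propeptide of procollagen, Mfap2 (0.89), a microfibril protein, P3h3 (0.52), a prolyl 3-hydroxylase family member, Adamts12 (0.73), a metalloprotease, Mmp14 (0.89), a membrane collagenase, Postn (0.65), a fibril-binding matricellular protein, Rcn3 (0.76), an endoplasmic reticulum calcium binder, and Fn1 (0.69), fibronectin. In each of these 8 the limma adjusted p was 1.15e-18 or smaller. This is the profile of genes whose levels were nearest to Col1a1 across the 115 mice.

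With Col4a1, 17 of 41 collagen genes rose and none fell (28.6% of all probe sets called, 16.8% higher, against 41.5%). Col15a1 (1.25, SE 0.0710), Col4a2 (1.01), Col5a3 (0.95), Col6a1 (0.84), Col6a2 (0.81), Col6a3 (0.76) and Col18a1 (0.76) led, and 7 of 11 fibrillar chains were called. Only 1 of the other 5 type IV chains was called. The nearest genes outside the collagens were Wwtr1 (0.69, r = 0.816), the Hippo pathway coactivator TAZ, Tenm4 (1.19), a teneurin, Parva (0.67), an integrin-linked adaptor, Ctnnbip1 (0.68), a beta-catenin inhibitor, Npdc1 (0.68), Sparc (0.53), a collagen-binding secreted protein, Plod3 (0.62), a lysyl hydroxylase and glycosyltransferase, and Tnks1bp1 (0.58).

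With Col6a1, 15 of 41 collagen genes rose and Col6a4 fell by 0.22 (27.8% of all probe sets called, 16.4% higher and 11.4% lower, against 39.02%). Col15a1 (1.13, SE 0.0745), Col6a2 (0.92), Col4a2 (0.83), Col5a3 (0.82), Col6a3 (0.79) and Col4a1 (0.75) led. Its nearest genes were Sec24d (0.67, r = 0.828), a coat protein of the vesicles that carry procollagen out of the endoplasmic reticulum, Mrc2 (0.98), an endocytic collagen receptor, P3h1 (0.71), a prolyl 3-hydroxylase, Anxa2 (0.96), Srpx2 (1.07), Cavin3 (1.33), a caveolar protein, Plod3 (0.59) and Gask1b (1.01). Plod3 was the one gene named for both Col4a1 and Col6a1, and no gene was named for both Col1a1 and either of them. Only 8 genes were named per chain, out of 2760, 4747 and 4622 probe sets called higher with Col1a1, Col4a1 and Col6a1. The full sets were not compared, so little overlap among the named genes does not show that the sets differ.

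Genes that make, process or bind collagen were followed as lists. Hipk2 slopes of listed genes come from the fit without the adipocyte mean, unless stated. With that mean in the fit some of them turned sign, as named in the section on processing. For the other listed genes, slopes with that mean are not given here. Of 22 measured genes of collagen folding and modification, 15 rose and 2 fell with Hipk2, while 14 rose and 1 fell with Col1a1, 16 rose with Col4a1 and 17 rose with Col6a1. Of all probe sets, 18.5% rose and 17.2% fell with Hipk2, and 9.79%, 16.8% and 16.4% rose with Col1a1, Col4a1 and Col6a1, the background for this list and those that follow. These shares include dim probe sets, whereas most listed genes had means above the median probe set (20 of 22 in this list). The background is therefore not matched for brightness. On Hipk2 the leading members were the lysyl hydroxylases Plod3 (0.54, SE 0.0558) and Plod1 (0.51, SE 0.0590), and on Col1a1 they were P3h3 and Colgalt1 (0.25), a collagen galactosyltransferase. Median slopes of this list were 0.25 on Hipk2 (−0.01 over all probe sets) and 0.25 on Col1a1 (−0.01). With the white adipocyte mean, which Hipk2 followed (r = 0.854), 13 rose and 1 fell (20.8% and 20.7% of all probe sets). Of the lists below, processing genes had 5 rises and 1 fall with that mean, degradation genes 8 and 1, and receptors 6 and 2. Fibril-binding genes had 12 and 1, and basement membrane partners 9 and 3. The list counts thus do not separate Hipk2 from that mean.

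Of 12 measured genes of procollagen processing and cross-linking, 5 rose and 1 fell with Hipk2, and 8, 8 and 9 rose with Col1a1, Col4a1 and Col6a1 with no fall. Lysyl oxidase, Lox, had a slope of 1.12 on Hipk2 (SE 0.103, limma adjusted p = 2.7e-17) and 1.16 on Col4a1. On Col1a1 the leading members were Bmp1, Loxl2 (0.67) and Loxl1 (0.58). Adamts3, a procollagen N-proteinase, fell by 0.42 with Hipk2 and rose by 0.49 with the epithelial mean. With the adipocyte mean in the Hipk2 fit its slope was 0.43 and not called.

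Collagen-degrading genes and their inhibitors (16 measured) had 8 rises and 1 fall with Hipk2 and 12 rises with Col1a1. Timp4, an inhibitor of metalloproteases, had the steepest Hipk2 slope of all the listed genes named here (1.71, SE 0.151), followed by Timp3 (0.63). The collagenase Mmp14, the gelatinase Mmp2 (0.63) and the collagen-cleaving cathepsin Ctsk (0.80) led on Col1a1.

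Basement membrane partners (14 measured) all rose with Col1a1, among them Lamb1 (0.49) and Lamc1 (0.33), laminin chains, while 10 rose with Col4a1, and 9 rose and 2 fell with Hipk2. Nid1 (0.75, SE 0.0676), a nidogen that links laminin to type IV collagen, and Hspg2 (0.68, SE 0.0714), perlecan, led on Hipk2. On the epithelial mean 6 rose and none fell (12.7% and 15.2% of all probe sets), led by the laminin chains Lama1 (0.70) and Lamb3 (0.43). Receptors (11 measured) had 6 rises and 2 falls with Hipk2, with Itga1 up by 0.52 and Itga2 down (slope −0.59), both integrin subunits that bind collagen. With the adipocyte mean in the fit these slopes were −0.17 and 0.30 and not called. Fibril-binding proteoglycans and glycoproteins (19 measured) had 11 rises and no fall with Hipk2, led by Prelp (1.12, SE 0.104), against 13 rises with Col1a1, led by Postn and Fn1. With Col4a1 15 of them rose and 1 fell, and with Col6a1 15 rose and none fell.

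Col4a4, Col13a1, Col19a1, Col22a1, Col24a1, Col25a1 and Col28a1 were called in none of the 9 slope fits, although all of them but Col25a1 were called in at least 1 alternative of these fits (Col28a1 fell with the epithelial mean in the joint fit, with a slope of −0.10 and a limma adjusted p of 0.00823). Each of these 7 had a mean below the median probe set, and no absence of change is shown.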

How the data were processed

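Total RNA of 115 mammary fat pads was labelled with biotin and hybridised to 1 array per mouse. Per the submitters' processing notes, the deposited log2 values come from RMA in oligo; no tool version or genome build is stated in the sources used here. Platform annotation gave a single symbol for 21141 of 28204 probe sets, more than 1 for 1881 and no symbol for 5182. RefSeq identifiers (GRCm38.p6) brought 21111 of these symbols up to date. The brightest probe set stood for its gene.

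Linear models with lymph cluster, array plate and, for slopes, 1 covariate were fitted with limma 3.58.1 in R 4.3.3 over all probe sets, with moderation and Benjamini-Hochberg adjustment, two-sided. A call was an adjusted p under 0.05. The gene or list used as covariate was left out of the genes tested. Covariates were Hipk2, Col1a1, Col4a1, Col6a1 and the means of 5 marker lists, each gene centred over mice. Pair correlations and slope differences used 100000 permutations (numpy 2.4.6, scipy 1.17.1). Scripts were tested on simulated data with 200 changed genes. Figures were drawn with matplotlib 3.10.9.

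Each mouse is a separate animal, replicate numbers follow accession order and pair nothing, and the number of arrays limits the precision. Members, gene lists and tests were chosen with earlier results of these data known. Genes named are the called collagens (largest slopes first), up to 4 genes per helper list with the smallest p (mostly the first 2 here, for length), and the 8 rising non-collagen genes with the smallest p on each of 3 collagens. Alternatives changed the plate term, normalization, dim probe sets, array weights, scale, moderation, probe set, mice and composition. The epidermal list and the exclusions of mice in the slope fits were chosen after seeing the data.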

Additional observations from a re-analysis of the deposited data

Results flagged for a closer look

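Of 42 collagen genes checked in lymph cluster 3 (10 mice), 2 had a mouse far from the others by Dixon's criterion. Chance alone flags about 1 in 20 such groups. Col4a6 was lowest at 5.36 in replicate 5, against 5.69 in the next mouse and a median of 5.82. Col27a1 was lowest at 6.08 in replicate 10, against 6.44 in the next mouse and a median of 6.46. No slope of a collagen gene on Hipk2 was called as different between lymph clusters 2 and 1.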

How the results depend on the processing

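No paired analysis was possible because replicate numbers follow accession order and the mice are separate animals. Of the alternatives to the main counts and slope differences, 262 kept within 1.5 times of the count, or the call, and 34 did not. The 262 include counts of 0 that stayed 0, as in the cluster and plate contrasts and with the skeletal muscle mean. Such counts had no call to lose, so the 262 overstate how steady the called genes were. For the counts of the helper lists, 111 alternatives fell outside 1.5 times of the main count. For single genes and pairs of genes, the call of the main result was lost in 230 alternatives, and the sign turned in 23. Rises with Hipk2 (9) became 2 with the white adipocyte mean as covariate and 1 with 4 list means. Falls with Hipk2 (5) became 3 with centred arrays, with quantile normalization, with the luminal epithelium mean as covariate and without the 3 mice of highest Col6a5, 2 without the 2 farthest mice and in lymph cluster 2 alone, 1 without dim probe sets and in lymph cluster 1 alone, and 0 with the white adipocyte mean or 4 list means. The Col6a1 minus Col1a1 difference was 0.32 with the adipocyte mean. The fall with Col6a1 (1) became 0 without dim probe sets and with 4 list means. Falls with the white adipocyte mean (6) became 3 without dim probe sets, 10 without replicates 57 and 31 of lymph cluster 2, and 2 in the joint fit of 4 list means. With the luminal epithelium mean, rises (13) became 8 without dim probe sets, and falls (4) became 1 on plate 1, 14 with centred arrays, 2 without dim probe sets and without mice with epidermal markers, and 8 with array weights and without the 2 farthest mice. Falls with blood endothelium (0) became 1 with centred arrays, without dim probe sets, with array weights and without the 2 farthest mice. The fall with the cell cycle mean (1) became 0 on plate 1, without dim probe sets, without the 2 farthest mice and in the joint fit, and 3 with array weights. Dropping dim probe sets removes collagen genes from the test by construction; the cause of the other changes was not tested.

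Slopes not called in the main fits could turn sign too and are not listed. On Hipk2, Col5a2 had 0.23 and, with the adipocyte mean, −0.0454, and Col1a1 had 0.04 and reached −0.15 among the alternatives. Among slopes called in the main fits, the sign turned for the following, none of them called afterwards. On Hipk2 with the adipocyte mean they were Col16a1 (0.0437), Pcolce (−0.19), Pcolce2 (−0.0703), Adamts3 (0.43), Itga1 (−0.17), Cspg4 (−0.0197), Itga2 (0.30), Ddr1 (−0.00545) and Lama4 (−0.0395), and with 4 list means Pcolce (−0.0464), Pcolce2 (−0.0409), Adamts3 (0.24), Itga1 (−0.16), Cspg4 (−0.0273), Itga2 (0.0691), Ddr1 (−0.0245) and Lama4 (−0.0895). Others were Itga1 on Col6a1 with 4 list means (−0.0245), and in the joint fit Col16a1 on the adipocyte mean (0.11) and Col15a1 (0.0543) and Lox (0.0122) on the epithelial mean. On plate 2, r was −0.0159 for Col4a3 with Col4a4, and −0.516 for Col11a1 with Col11a2 (called on that plate).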

Other observations

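TGF-beta signalling genes, which are known to control fibrillar collagen transcription, did not move one way with Hipk2. Of 15 measured genes, 3 rose and 6 fell (18.5% and 17.2% of all probe sets), with a median slope of −0.11 (−0.01 over all probe sets). Ltbp3, a latent TGF-beta binding protein, rose by 0.67 (SE 0.0669, limma adjusted p = 1.94e-15) and Tgfbr3, the co-receptor betaglycan, rose by 0.39 (SE 0.0435), while the repressor Skil fell by 0.33 (SE 0.0653). The split was much the same with the white adipocyte mean, which Hipk2 followed (r = 0.854): 3 rose and 7 fell (20.8% and 20.7% of all probe sets). With Col1a1, 3 genes of the list rose and none fell (9.79% and 6.67% of all probe sets), led by Ltbp1 (0.32, SE 0.0635). With the luminal epithelium mean 6 rose and none fell (12.7% and 15.2% of all probe sets), led by the ligands Tgfb3 (0.49, SE 0.0379) and Tgfb2 (0.46, SE 0.0505).

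Col11a1 and Col11a2, both chains of type XI collagen, had r = −0.516 on plate 2 (22 arrays, permutation adjusted p = 0.0203) and r = 0.0660 on plate 1 (93 arrays, permutation adjusted p = 0.529). After the 4 list means were also removed, r was 0.214 over all mice (permutation adjusted p = 0.0237). The difference between the plates was not tested, and both genes had means below the median probe set.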
